A study of Homo sapiens with 2 samples.

Results

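SOX transcription factors are described here in embryonic stem cell-derived beta cells (eBCs). The members are SOX2, SOX4, SOX5, SOX6, SOX9, SOX11, SOX12 and SOX13, chosen by gene symbol, and they are 8 of the 33694 genes counted. The cells were iSOX9KO eBCs, made from 1 clone of an INS-GFP reporter line of the human embryonic stem cell line Mel1, which carries a doxycycline (DOX)-inducible Cas9 and 3 guides against SOX9. Both groups carry this cassette. The group labelled no DOX had no DOX, and the group labelled DOX had 2 ug/ml DOX from day 12 of differentiation. Live cells with high GFP were sorted and reaggregated into eBCs, and live cells were sorted again before 1 10X Genomics library was made per group. With a single library for each condition, nothing was tested between libraries or between clusters of cells, and the 95% intervals given cover counting error only. Wherever a pair of values is given without naming the libraries, the first is of the library labelled no DOX.

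SOX proteins bind DNA through an HMG box, a domain that fits into the minor groove and bends the helix, and they act with partner factors that differ between tissues. SOX2 belongs to the SOXB1 group and is known from pluripotent and neural progenitor cells. SOX4, SOX11 and SOX12 form the SOXC group, which is active in progenitors and newly differentiating cells, and Sox4 is needed for normal endocrine cell formation in the mouse pancreas. SOX5, SOX6 and SOX13 form the SOXD group, which lacks a transactivation domain of its own and is known as a partner of SOXE factors in cartilage. SOX9, of the SOXE group, maintains pancreatic progenitors and marks the adult duct, and it is the gene targeted in these cells.

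The 8 genes share a stretch of 10 codons within the HMG box that encodes the same amino acids in each, the longest such stretch found. Its 30 bases are shown, 5′ to 3′ on the coding strand, as an example of the sequence these genes have in common. Whether near-identical sequence sent reads to the wrong member was not tested. Capitals mark bases that differ from SOX9, and the sequences were read from GENCODE 44 transcripts and checked against GRCh38.
SOX9: aagcggcccatgaacgccttcatggtgtgg
SOX2: aagcggcccatgaaTgccttcatggtgtgg
SOX4: aagcgAcccatgaacgccttcatggtgtgg
SOX11: aagcggccGatgaacgcGttcatggtAtgg
SOX12: aagAggccGatgaacgcAttcatggtgtgg
SOX5: aagcgTccAatgaaTgccttcatggtgtgg
SOX6: aagcgAccAatgaaTgcAttcatggtTtgg
SOX13: aagAggcccatgaacgccttcatggtgtgg
SOX2, SOX4 and SOX13 differed from SOX9 at 1 base, SOX5, SOX11 and SOX12 at 3 bases, and SOX6 at 5 bases. Over the whole canonical transcripts, the longest exact run shared by any of the 28 pairs of members was 35 bases, between SOX11 and SOX12, and the median over pairs was 17 bases.

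On GRCh38 the stretch lies in exon 1 of 3 of SOX9 (ENSG00000125398, chromosome 17, 72121707 to 72121736, plus strand). SOX2 (ENSG00000181449), SOX4 (ENSG00000124766), SOX11 (ENSG00000176887) and SOX12 (ENSG00000177732) have 1 exon, which holds it on chromosome 3 (181712484 to 181712513), chromosome 6 (21594712 to 21594741), chromosome 2 (5692869 to 5692898) and chromosome 20 (326045 to 326074), all on the plus strand. It lies in exon 13 of 15 of SOX5 (ENSG00000134532, chromosome 12, 23543284 to 23543313, minus strand), exon 14 of 16 of SOX6 (ENSG00000110693, chromosome 11, 15989070 to 15989099, minus strand) and exon 12 of 14 of SOX13 (ENSG00000143842, chromosome 1, 204123702 to 204123731, plus strand). SOX5 and SOX6 span 1033041 and 773143 bases, and other annotated genes overlap them on the opposite strand, among them SOX5-AS1 and C11orf58. SOX9-AS1 and ENSG00000288605 overlap SOX9 in the same way, as do NRSN2-AS1 with SOX12, ENSG00000283480 with SOX4 and ENSG00000286572 with SOX13. On the same strand SOX2 lies within SOX2-OT, ENSG00000242540 overlaps SOX11, and MIR6073 and AKR1B1P3 overlap SOX6. Whether the counting used the strand is not given in the sources used here, so reads from these partners cannot be told apart from those of the member.

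The libraries held 30288 barcodes (labelled no DOX) and 31817 barcodes (labelled DOX), of which 44921 were kept as cells, with median depths of 13958 and 12667 unique molecular identifiers (UMIs). The libraries shared 369 barcode sequences, 141 of them among the cells kept. Clustering without any SOX gene gave 6 classes named by their markers, alpha-like (9181 cells), beta-like (16842), delta-like (4573), duct-like (331), beta cell progenitor-like (10655) and proliferating progenitor-like (1012), and 1 unnamed cluster of 2327 cells with a median of 70.8% mitochondrial UMIs. The labels could not be checked from the targeted gene, since small insertions or deletions made by Cas9 can leave a transcript's count as it was. They went against a supplementary list of the study, as 3 of the 189 genes listed for DOX and 119 of the 119 listed for no DOX were higher in the library labelled DOX. Alpha-like cells were 23.2% and 17.8% of the cells kept and delta-like cells 12.1% and 8.38%. Beta cell progenitor-like cells were 24.3% and 23.1% and beta-like cells 32.0% and 42.6%. These shares were not used to settle the labels. The label is used as a name only, and which library had received DOX is uncertain for every direction given.

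SOX9 was counted mostly in the duct-like cells. Levels are given as CPM, the UMIs of a gene among 1000000 UMIs of all genes in a class, with exact Poisson intervals. Over all cells kept, SOX9 stood at 2.998 CPM (946 UMIs) and 3.78 CPM (1147 UMIs). In the duct-like cells it stood at 252 CPM (233 to 273) and 283 CPM (264 to 302). These cells were 0.737% of all cells and held 71.3% of all SOX9 UMIs. In the 4 endocrine classes together SOX9 stood at 1.03 and 0.957 CPM, so that the duct-like level was 271-fold higher, a log2 ratio of 8.08 (7.94 to 8.22).

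Among endocrine cells the beta cell progenitor-like class held the highest SOX9 level. It had 197 UMIs, or 2.95 CPM (2.55 to 3.39), and 205 UMIs, or 3.52 CPM (3.05 to 4.04). Delta-like cells followed at 1.29 and 1.08 CPM, a difference larger than its counting interval (log2 ratio of progenitor-like over delta-like 1.42, 1.05 to 1.80). Finer clusters, made at Leiden resolution 0.5, were not alike. SOX9 stood at 4.11 and 4.63 CPM in an unnamed one led by NTRK3 and TRIM67. The one named beta cell progenitor-like held 2.88 and 3.27 CPM. An unnamed one led by GPC3 held 1.27 and 1.59 CPM, near the delta-like level. How the progenitor-like class divides over these clusters is not given here. Beta-like cells stood at 0.305 and 0.212 CPM. Alpha-like cells at 0.384 and 0.252 CPM and proliferating cells at 0.443 and 0.739 CPM, with 10 SOX9 UMIs in all, could not be placed apart from each other, nor alpha-like from beta-like cells, within their intervals. In alpha-like cells 10 of the 9181 cells held 59.0% of the 39 SOX9 UMIs, with 10 of them in 1 cell of the library labelled no DOX.

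Shares of cells with a UMI were compared at equal depth, with each cell thinned to 5000 UMIs and shallower cells left out. Among duct-like cells 62.6% of 147 and 72.9% of 177 held a SOX9 UMI, the first with an exact Clopper-Pearson interval of 54.2 to 70.4. SOX9 was detected in 1.38% and 1.45% of beta cell progenitor-like cells and in 0.121% and 0.0837% of beta-like cells. The progenitor-like share stood above the beta-like share in both libraries. Free RNA can give UMIs in cells that do not express a gene, and whether the UMIs in beta-like cells came from it was not tested. The progenitor-like cells were shallower (median 10790 and 9475 UMIs before thinning, against 17997 and 14746), so that after thinning free RNA can make up a larger part of them, and the part of this in the difference was not tested. Before thinning the shares were 86.9% and 91.6% in duct-like, 2.88% and 2.94% in progenitor-like and 0.515% and 0.314% in beta-like cells.

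Progenitor-like cells with and without a SOX9 UMI were set side by side. Their class had been assigned from genes other than SOX genes after doublets were removed, so low duct-like markers in them were largely fixed by that step. In the no DOX-labelled library the 153 such cells held the 12 duct-like markers at a summed 17.2 CPM, against 20.4 CPM in the 5154 cells without one. In the library labelled DOX the values were 29.6 CPM in 157 cells and 25.8 CPM in 5191 cells, while duct-like cells with a SOX9 UMI held 6359 and 3633 CPM. FEV, a transcription factor of endocrine progenitors, stood at 1911 and 1837 CPM in the progenitor-like cells with a SOX9 UMI and at 1739 and 1710 CPM in those without. INS was lower in the cells with a SOX9 UMI, at 51374 and 39816 CPM, than in those without, at 73205 and 61174 CPM. The cells with a SOX9 UMI were deeper, with medians of 11930 and 10392 UMIs. The part of depth, and of the finer clusters given above, in these differences was not tested.

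**Figure D1:**
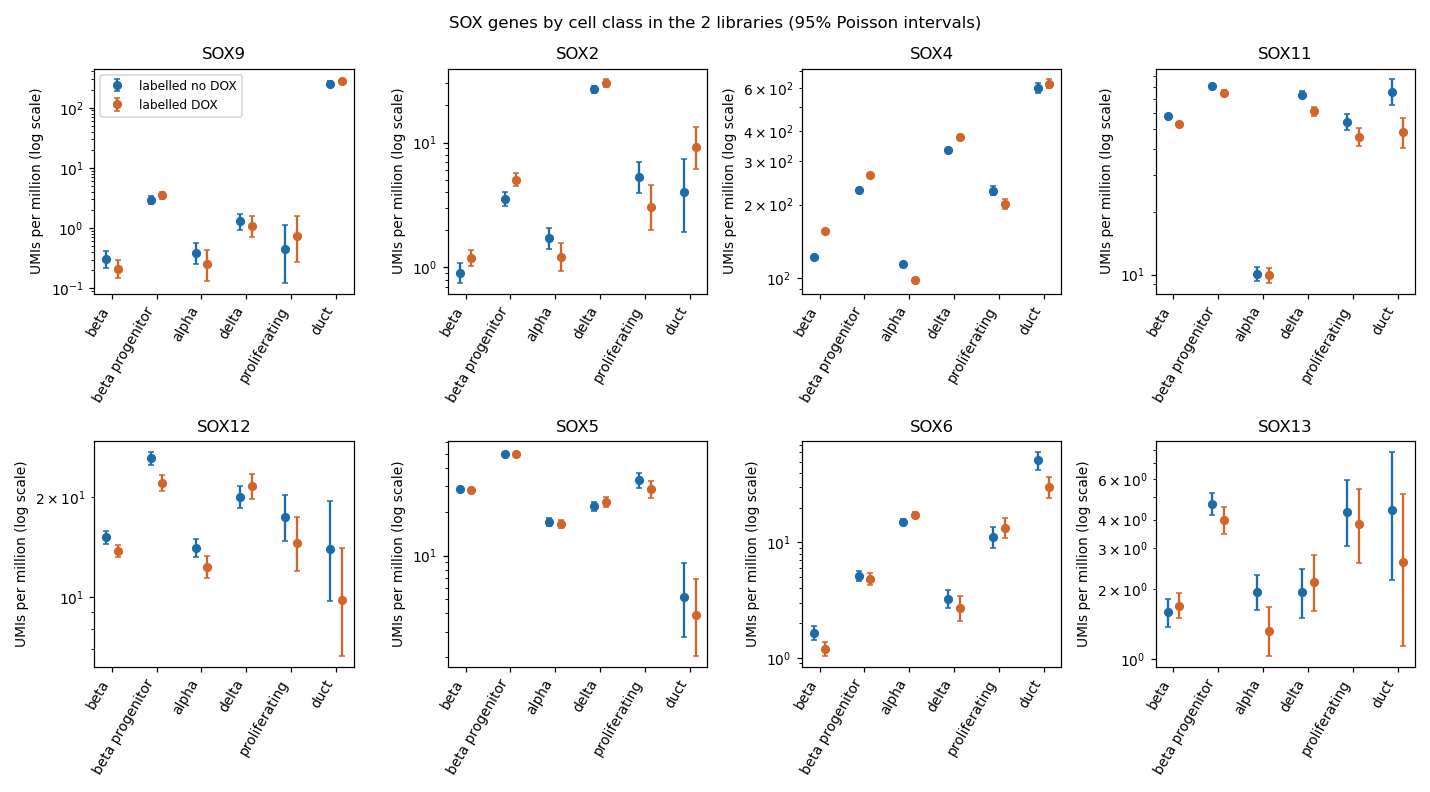
CPM of the 8 SOX genes (vertical axes, log scale, each panel with its own range) by named cell class, for the libraries labelled no DOX (blue) and DOX (orange), with bars for exact Poisson 95% intervals. SOX9 at 252 and 283 CPM in duct-like cells and SOX2 at 26.8 and 30.3 CPM in delta-like cells stand far above the other classes, while SOX12 spans a narrow range.

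Genes linked to SOX9 were read from lists chosen for this gene. Counts of list genes at 10 CPM have no share of all genes beside them, so nothing is read from the counts alone. Of 6 genes of the progenitor list, HES1, FGFR2, ONECUT1, FOXA2 and NEUROG3 among them, 5 reached 10 CPM in duct-like and 2 in the 4 endocrine classes. HES1, a Notch effector, stood at 279 and 462 CPM in duct-like cells, against 10.7 CPM over the endocrine classes. ONECUT1 stood at 21.2 and 19.0 CPM and FGFR2 at 24.0 and 15.7 CPM, and FOXA2 was lower in duct-like (47.7 CPM) than in endocrine cells (127 CPM). Of 6 cartilage genes known as SOX9 targets, 2 reached 10 CPM in duct-like cells, COL2A1 at 129 and 82.9 CPM and COL9A1 at 45.6 and 24.6 CPM, and 0 did so in the endocrine classes. HAPLN1, another of them, had 0 UMIs in the duct-like cells.

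The duct-like class was named by TM4SF1, IFITM3, ANXA2, IL32, TPM2, ZFP36L1, CDH11, VIM, TTYH1, CALB1, COL4A2 and MYL9. It held markers of other cell types as well. Of the Schwann or neural crest list, 3 of 5 genes reached 10 CPM there, ERBB3 at 77.9 and 60.6 CPM among them, while FOXD3 had 0 UMIs. This list summed to 285 and 143 CPM in duct-like cells. In beta cell progenitor-like cells 1 of the 5 genes reached 10 CPM, and the list summed to 72.05 and 67.7 CPM. Over the endocrine classes together 1 gene did so, and the sums were 38.1 and 35.1 CPM. No endocrine value of ERBB3 is given here, so ERBB3 is not read as particular to duct-like cells. In duct-like cells HES5 of the neural progenitor list stood at 178 and 137 CPM, with PAX3 and OLIG2 at 0. LIN28A of the pluripotent list stood there at 34.8 and 19.7 CPM, with POU5F1 at 0. The acinar list summed to 145 CPM and 498 CPM. The mesenchymal list, which holds neither VIM nor CDH11, summed to 19.6 and 14.1 CPM and endothelial genes to 0 in both libraries. The part of these differences in the SOX values of the class was not tested.

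**Figure D2:**
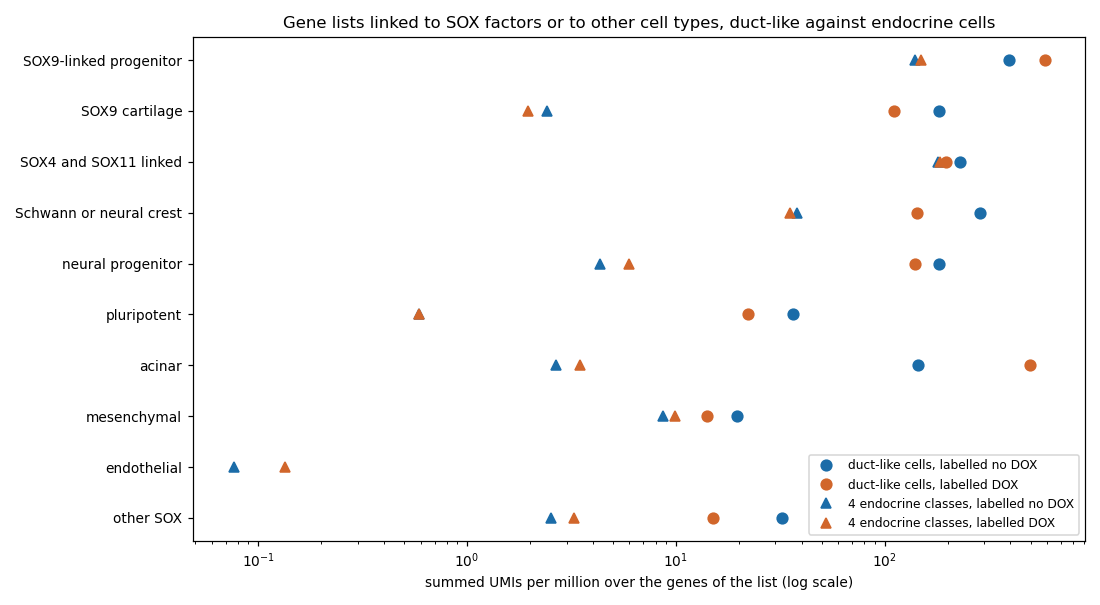
Summed CPM (log scale) of the genes of each list in duct-like cells (circles) and in the 4 endocrine classes (triangles), for the libraries labelled no DOX (blue) and DOX (orange). Endothelial genes had 0 UMIs in duct-like cells and have no circle there, and the acinar list shows the widest gap between the libraries, 145 against 498 CPM.

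Of the 11 other SOX genes, 1 reached 5 CPM in any class with both libraries summed, as did 12520 of all 33694 genes. This was SOX10, of the same SOXE group as SOX9 and a factor of neural crest and Schwann cells, at 24.8 CPM (62 UMIs) and 11.1 CPM (34 UMIs) in duct-like cells. Log2 ratios between the libraries are those of the DOX-labelled library to the other, and that of SOX10 was -1.15 (-1.80 to -0.53), and SOX10, which POLR2F overlaps on the opposite strand, had 9 UMIs in the 4 endocrine classes. SOX8, the third SOXE gene, had 12 UMIs in duct-like cells. SOX15 was highest in the proliferating class at 3.55 and 4.68 CPM, SOX1, SOX3, SOX7, SOX17, SOX18, SOX21 and SOX30 had 5 to 260 UMIs over all cells kept, and SOX14 had 0.

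Duct-like cells with a SOX10 UMI, summed as a group, also held SOX9. The 42 cells with a SOX10 UMI in the no DOX-labelled library held SOX9 at 230 CPM and the duct-like markers at 7312 CPM, against 262 and 5949 CPM in the 111 cells without. In the library labelled DOX the 23 cells with one held SOX9 at 264 CPM, against 286 CPM in the 155 without. ERBB3 stood at 81.1 and 137 CPM in the cells with a SOX10 UMI, against 76.6 and 48.4 CPM. KRT19, a duct keratin, was lower in the cells with a SOX10 UMI, at 241 and 205 CPM against 289 and 296 CPM. These are levels summed over few cells, not shares of cells with both genes. The duct-like marker sum is given for the no DOX-labelled library only. The part of depth in these differences was not tested.

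SOX2, known from pluripotent cells, was highest in delta-like cells. It stood there at 26.8 CPM (25.2 to 28.6) and 30.3 CPM (28.1 to 32.5). This was 26.8-fold above the beta-like level of 0.900 and 1.18 CPM, a log2 ratio of 4.74 (4.57 to 4.92). Duct-like cells stood at 3.997 and 9.18 CPM, with 10 and 28 UMIs, proliferating cells at 5.32 and 3.08 CPM and progenitor-like cells at 3.54 and 5.06 CPM. The order of duct-like against proliferating and of proliferating against progenitor-like cells turned between the libraries, so these classes were not placed apart. In alpha-like cells SOX2 stood at 1.71 and 1.22 CPM, and 10 of the 9181 cells held 30.7% of its 179 UMIs, up to 16 in 1 cell.

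At 5000 UMIs per cell SOX2 was detected in 10.9% and 12.4% of delta-like cells, against 0.514% and 0.586% of beta-like cells. POU5F1, with which SOX2 acts in pluripotent cells, and 4 other genes of the pluripotent list stayed under 5 CPM in each of the 6 classes, and LIN28A passed it in duct-like cells only. Delta-like cells with a SOX2 UMI had SST, the delta cell hormone, at 204786 and 210954 CPM, against 225702 and 219240 CPM in those without. HHEX, a factor required by delta cells, stood at 161 and 176 CPM with and at 202 and 176 CPM without a SOX2 UMI. Depths of these delta-like groups are not given here, and the part of depth in their SST and HHEX values was not tested. In the progenitor-like class SST was higher in cells with a SOX2 UMI, at 4958 and 5138 CPM against 2487 and 2011 CPM. The median depths of these cells were 10781 and 10914.5 UMIs, against 10790 and 9442.5 in those without, and the part of depth and of free RNA in this difference was not tested.

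SOX4, the main SOXC gene of the endocrine pancreas, was counted in every class and was highest in duct-like cells. It stood there at 599 CPM (569 to 630) and 624 CPM (597 to 653). Delta-like cells followed at 335 and 377 CPM and beta cell progenitor-like cells at 229 and 265 CPM. The beta-like level of 122 and 156 CPM and the alpha-like level of 114 and 97.9 CPM were lowest, and all neighbours in this order differed by more than their counting intervals over both libraries. In the no DOX-labelled library alone, progenitor-like and proliferating cells lay close together, with a log2 ratio of 0.008 against 0.40 in the library labelled DOX. SOX4 was detected at equal depth in 86.4% and 87.6% of duct-like cells, 69.7% and 74.02% of delta-like cells and 32.3% and 29.2% of alpha-like cells.

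SOX4 also differed between finer clusters made at Leiden resolution 0.5. Beta-2-like cells (5375), led by ASIC1, WSCD2 and C16orf74, held SOX4 at 247 and 279 CPM. Beta-1-like cells (6246), led by metallothionein genes, held it at 55.6 and 97.8 CPM, and an unnamed cluster of 4764 cells led by GHRH and AQP2, with IAPP among its leading genes, at 68.0 and 95.4 CPM. SOX4 was thus highest in Beta-2-like cells of these 3 clusters in both libraries, while SOX11 was lowest there. SOX11 had 80.9 and 69.1 CPM in the GHRH cluster, 55.0 and 53.3 CPM in Beta-1-like cells and 44.8 and 37.96 CPM in Beta-2-like cells. Leading genes of the GHRH cluster include GHRH, LOXL4 and NPPC of the Beta-1 marker list and NEFL and NEFM of the Beta-2 list. The 2 names therefore do not cover all cells with such markers.

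SOX11, which shares most of its known functions with SOX4, was lowest in alpha-like cells. Its level was 10.1 CPM (9.35 to 10.9) and 9.91 CPM (9.07 to 10.8) there, against 57.7 and 52.6 CPM in beta-like cells, a log2 ratio of -2.46 (-2.54 to -2.37). The progenitor-like class was highest at 80.1 and 74.4 CPM, and an unnamed fine cluster led by NTRK3 and TRIM67 reached 97.8 and 91.1 CPM. Delta-like cells stood at 73.0 and 60.8 CPM, and their order against duct-like cells (75.5 and 48.2 CPM) turned between the libraries. At 5000 UMIs per cell SOX11 was detected in 4.72% and 4.85% of alpha-like cells, and in 20.04% to 30.3% of the cells of every other named class.

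In most classes SOX4 and SOX11 were detected in the same cell about as often as the product of their shares gives. In progenitor-like cells 17.8% and 18.4% held both, and the products were 17.6% and 18.3%. In beta-like cells the values were 7.51% and 7.68%, with products of 7.81% and 8.50%. In proliferating cells 15.04% and 11.7% held both, above the products of 11.5% and 9.54%. In alpha-like cells 1.89% and 1.43% held both, with products of 1.53% and 1.42%. No test of these differences was made, since cells of 1 library are not replicates.

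SOX12, the third SOXC gene, varied least between classes, 2.07-fold from the highest to the lowest. Progenitor-like cells held it at 26.2 CPM (25.0 to 27.5) and 22.0 CPM (20.9 to 23.3), delta-like cells at 20.04 and 21.6 CPM and alpha-like cells at 14.1 and 12.4 CPM. The duct-like level of 13.99 and 9.83 CPM, from 35 and 30 UMIs, could not be told apart from that of alpha-like cells. Of 6 genes linked to SOX4 and SOX11, DCX, which encodes doublecortin of migrating neurons, was highest in progenitor-like cells (205 CPM) and low in alpha-like cells (32.0 CPM), while MAP2 stood at 51.7 and 50.9 CPM in beta-like and alpha-like cells. EZH2 of the same list was highest in proliferating cells (98.7 CPM), and TEAD2 stood at 28.8 and 27.5 CPM in duct-like cells.

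**Figure D3:**
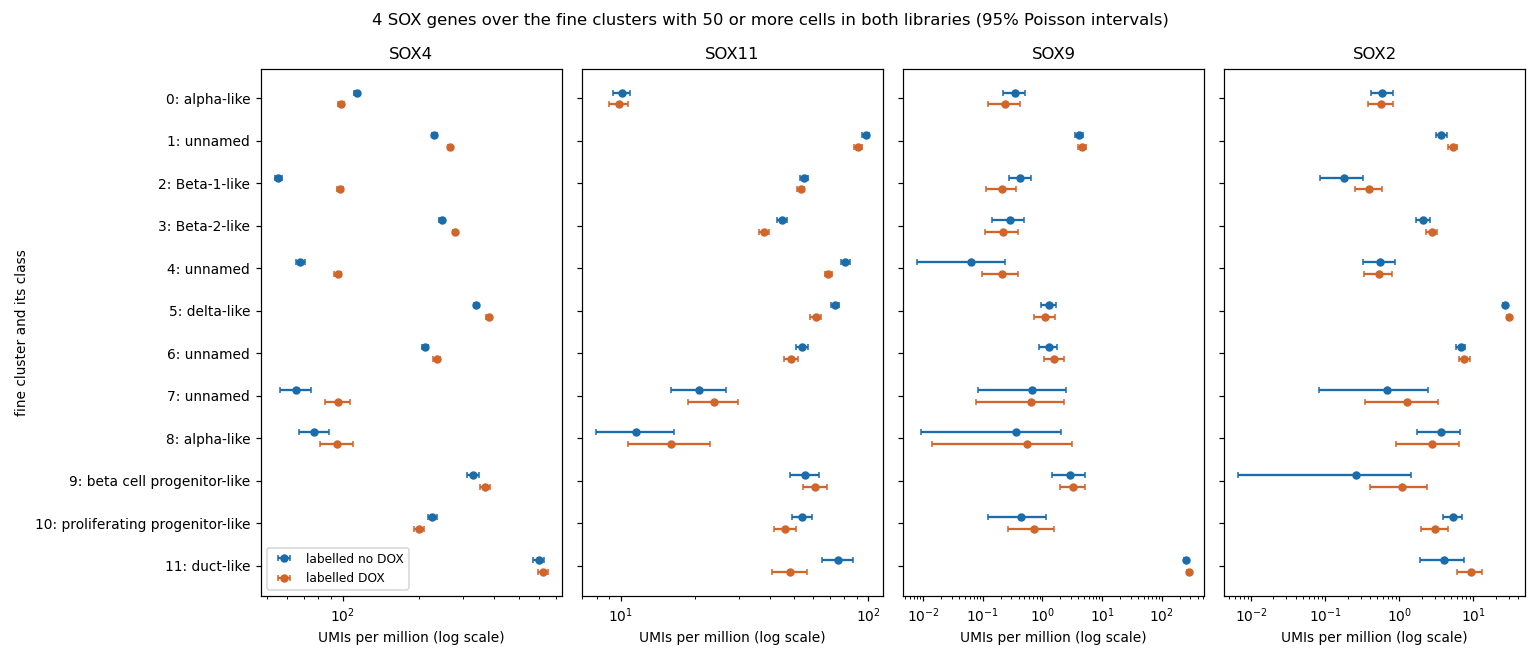
CPM (log scale) of SOX4, SOX11, SOX9 and SOX2 in 12 fine clusters, given by number and by class where one was named, for the libraries labelled no DOX (blue) and DOX (orange), with exact Poisson 95% intervals. SOX4 is low in clusters 2 and 4 and high in cluster 3, while SOX11 is lower in cluster 3 than in clusters 2 and 4.

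Of the SOXD genes, SOX5 was highest in the beta cell progenitor-like cells. Its level was 49.5 CPM (47.8 to 51.2) and 49.8 CPM (48.0 to 51.7) in these cells, 32.9 and 28.6 CPM in proliferating cells and 28.8 and 28.1 CPM in beta-like cells. Alpha-like cells held 17.0 and 16.4 CPM. Duct-like cells were lowest, at 5.20 and 3.93 CPM from 13 and 12 UMIs, a log2 ratio to the endocrine classes of -2.73 (-3.36 to -2.17). SOX5 was thus lowest in the class where SOX9 was highest.

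SOX6, its close relative, was highest in duct-like cells at 51.2 CPM (42.7 to 60.8) and 30.2 CPM (24.3 to 37.0), followed by alpha-like cells at 15.1 and 17.3 CPM. Beta-like cells were lowest at 1.66 and 1.20 CPM, so that the alpha-like level was 11.3-fold higher (log2 ratio 3.50, 3.35 to 3.66). Proliferating cells stood between, at 11.1 and 13.4 CPM. Over 25 combinations of fine cluster and library with at least 50 cells, Pearson's r of log2(CPM + 1) was -0.54 between SOX5 and SOX6, -0.51 between SOX5 and SOX9 and 0.62 between SOX6 and SOX9, given as a description since the points share 2 libraries. SOX9 stood at 252 and 283 CPM in the duct-like points and at no more than 4.63 CPM in any other. The duct-like points thus weigh heavily in every r of SOX9. They were also the lowest for SOX5 and the highest for SOX6, and their part in the r of these 2 genes was not tested.

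Alpha-like cells with a SOX6 UMI had more of the alpha cell hormone. GCG stood at 26687 CPM in the 778 such cells of the no DOX-labelled library, against 17277 CPM in the 4285 without. In the library labelled DOX the values were 32605 CPM in 698 cells and 21980 CPM in 3420 cells. INS was lower in the cells with a SOX6 UMI, at 107824 and 86606 CPM against 158587 and 127781 CPM. The cells with a SOX6 UMI were deeper, with medians of 15649 and 13878 UMIs against 12738 and 12074, and the part of depth in these differences was not tested.

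SOX13, the third SOXD gene, was low throughout and did not reach 5 CPM in any class. It was highest in progenitor-like cells at 4.69 and 3.97 CPM, above the beta-like level of 1.59 and 1.70 CPM by 1.40 (1.22 to 1.58) on the log2 scale. Alpha-like cells stood at 1.95 and 1.32 CPM, and their order against beta-like cells turned between the libraries. The proliferating class at 4.32 and 3.82 CPM could not be told apart from the progenitor-like class. The duct-like class at 4.40 and 2.62 CPM, from 11 and 8 UMIs, had intervals (2.19 to 7.87 and 1.13 to 5.17) that overlapped those of the progenitor-like class (4.18 to 5.24 and 3.47 to 4.51). It was detected in 0.689% to 2.79% of cells at equal depth.

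**Figure D4:**
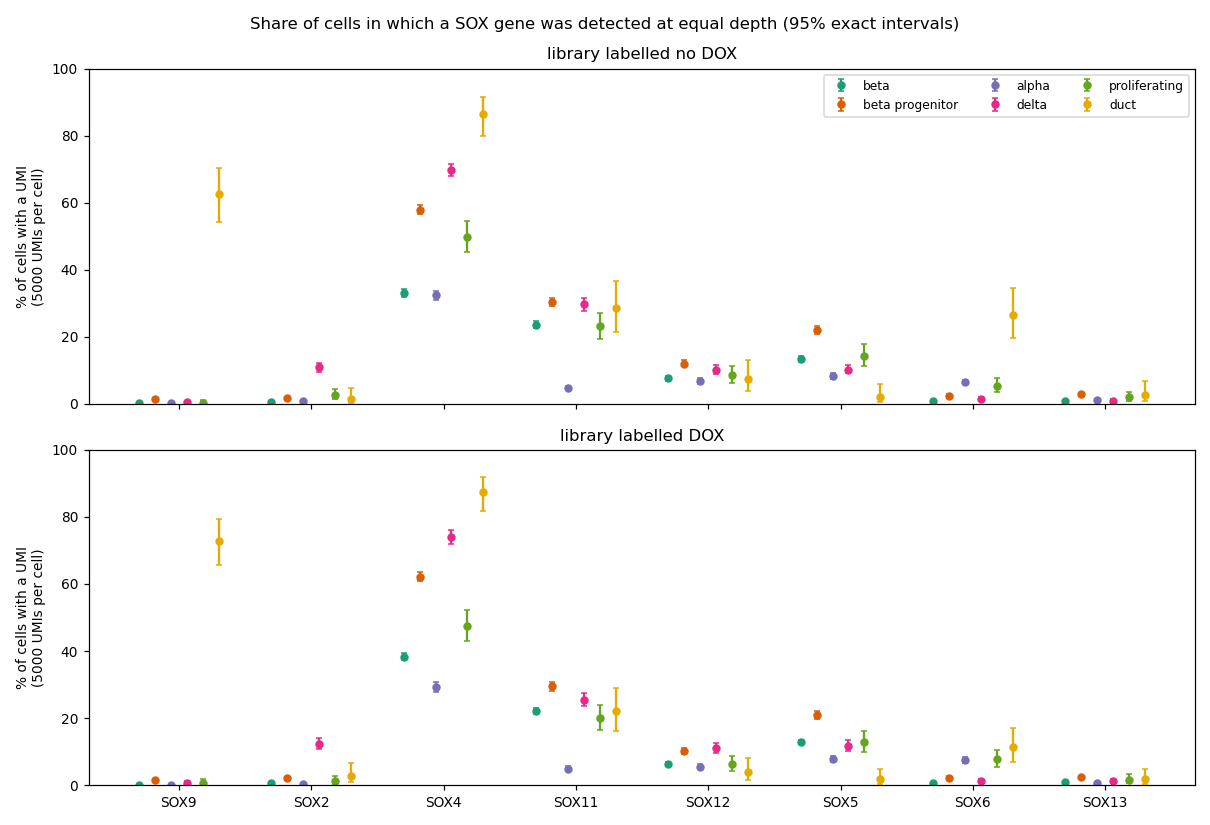
Percent of cells with at least 1 UMI of each SOX gene after thinning every cell to 5000 UMIs, by named class (colours), for the libraries labelled no DOX (top) and DOX (bottom), with exact Clopper-Pearson 95% intervals. SOX4 is detected in 29.2% to 87.6% of cells in every class, while SOX9 and SOX2 exceed a few percent in duct-like and delta-like cells alone.

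Over the 8 members the class with the highest level was the same in both libraries for 8, and for 7 under 5 of the alternatives, where SOX12 or SOX13 had different classes. It was delta-like for SOX2, duct-like for SOX4, SOX6 and SOX9, and beta cell progenitor-like for SOX5, SOX11, SOX12 and SOX13. In the fine cluster named beta cell progenitor-like (1061 cells), SOX11 and SOX12 were not highest. SOX11 stood there at 55.5 and 61.0 CPM, under the 80.9 and 69.1 CPM of the GHRH cluster. SOX12 stood at 15.7 and 13.3 CPM, near the 15.2 and 13.8 CPM of the beta-like class. This fine cluster held SOX5 at 48.2 and 45.8 CPM and SOX13 at 4.71 and 4.36 CPM. Of 12520 genes with at least 5 CPM in a class, 85.2% had the same highest class in both libraries, so the count of 7 of 7 members with this level lies near the background. The highest class was at least 2-fold above the next for SOX2, SOX6 and SOX9 with both libraries summed, as for 17.3% of all genes, and SOX9 reached 5 CPM in its highest class only. For SOX6 this held in the library labelled no DOX (log2 ratio 1.77) but not in the one labelled DOX (0.80), nor with doublets kept (0.87, both libraries summed). SOX4, SOX5 and SOX12 were higher in progenitor-like than in beta-like cells by a log2 ratio of 0.5 or more, as were 55% of all genes with at least 5 CPM in either, and SOX11 had a log2 ratio of 0.49. SOX6 reached 5 CPM only in the progenitor-like class of this pair, at 5.02 against 1.41 CPM with both libraries summed.

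The genes whose level over the fine clusters was most like that of a member were taken by Pearson's r over the same 25 points. They were APOBEC3C, CDC42EP1 and SULT1A1 for SOX9 (0.97 each), SLC16A7, KCTD8 and WSCD1 for SOX2 (0.81, 0.78 and 0.77), and TRIM24, TMSB4X and NCK2 for SOX4 (0.92, 0.90 and 0.90). For SOX11 they were CXADR, SBK1 and YPEL1 (0.87, 0.87 and 0.86) and for SOX12 GYG2, EBLN3 and RGL2 (0.93, 0.92 and 0.90). MAP1A and SYT16, after RP11-531A24.3, were closest to SOX5 (0.94, 0.93 and 0.95), ANO9, HPGD and RNF144A to SOX6 (0.89 each) and EMSY, SPECC1 and PGBD1 to SOX13 (0.94 each). HPGD is among the markers that named the alpha-like class. Between members the values ran from -0.54 to 0.68, the latter for SOX4 and SOX9. Every value with SOX9 here leans on the duct-like points, as described above. These points were also the highest for SOX4 and SOX6 and the lowest for SOX5. Among the 25 points are clusters with median depths of 1982, 2812 and 4088 UMIs, the first with a median of 70.4% mitochondrial UMIs. The part of such points in each r was not tested.

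Between the libraries, 0 of the 5 members with at least 5 CPM over all cells kept reached a log2 ratio of 0.5 in size, against 1.01% of 10444 genes. SOX4 was the member of these 5 above 0, at 174 and 190 CPM with a log2 ratio of 0.13 (0.11 to 0.15). SOX12 had a log2 ratio of -0.18 (-0.24 to -0.12), SOX6 the same value (-0.27 to -0.08), SOX11 -0.11 (-0.14 to -0.08) and SOX5 -0.01 (-0.05 to 0.04). The median over these 5 was -0.11, against -0.01 for all genes. Alpha-like cells held 53.1% of the SOX6 UMIs, and there its log2 ratio was 0.20 (0.07 to 0.33), opposite to that over all cells. These cells were 23.2% and 17.8% of the cells kept, and the part of class shares in the ratios over all cells was not tested.

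The log2 ratio of SOX9 itself was 0.33 (0.21 to 0.46) over all cells. Log-normalized means, thinning and equal class weights gave smaller ratios outside this interval, listed at the end. The ratio over all cells followed the duct-like cells. These were 0.702% of cells (153) and 0.770% of cells (178), with overlapping intervals. Within them SOX9 had a log2 ratio of 0.16 (0.01 to 0.31), and within the endocrine classes of -0.10 (-0.34 to 0.14). In the same duct-like cells the acinar list summed to 145 and 498 CPM and the Schwann or neural crest list to 285 and 143 CPM, and the 12 duct-like markers to 6359 and 3633 CPM in those with a SOX9 UMI. The part of these shifts in the SOX9 ratio was not tested. With the duct-like cells left out, the ratio over the remaining cells was -0.09, so its direction over all cells rests on these 331 cells. In progenitor-like cells the log2 ratio was 0.25 (-0.04 to 0.54) and in beta-like cells -0.52 (-1.23 to 0.18), so no difference was detectable there at this depth.

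SOX4 went in opposite directions between the libraries in different classes. Its log2 ratio was 0.35 (0.32 to 0.38) in beta-like, 0.21 (0.18 to 0.24) in progenitor-like and 0.17 (0.13 to 0.21) in delta-like cells, and -0.22 (-0.27 to -0.17) in alpha-like and -0.18 (-0.28 to -0.09) in proliferating cells. Among the fine clusters it was 0.81 (0.75 to 0.88) in the Beta-1-like cluster, 0.49 (0.41 to 0.56) in the GHRH cluster and 0.18 (0.14 to 0.21) in Beta-2-like cells. In duct-like cells it was 0.06 (-0.04 to 0.16). Since SOX11 and SOX12 had log2 ratios of -0.13 and -0.14 in beta-like cells, the upward ratio in these cells was not shared by the other SOXC genes.

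SOX11 was lower in the library labelled DOX in 5 of 6 named classes beyond its counting interval, with log2 ratios from -0.65 (duct-like) to -0.11 (progenitor-like), and stood at -0.03 (-0.19 to 0.14) in alpha-like cells. SOX12 had ratios below 0 in 5 of 6 classes, -0.25 (-0.35 to -0.14) in progenitor-like cells, and 0.11 (-0.05 to 0.28) in delta-like cells. SOX5 had intervals that held 0 in all 6 classes. In beta-like cells 0 of the 4 members with at least 5 CPM reached a log2 ratio of 0.5 in size, against 1.19% of genes, and the same held for 0 of 5 in alpha-like (1.3%) and 0 of 5 in delta-like cells (0.94%). In progenitor-like cells SOX2 stood at 3.54 and 5.06 CPM, a log2 ratio of 0.52 (0.27 to 0.77). It reached 5 CPM there only in the library where it was higher, so nothing is read from setting it beside the 1.1% of genes past 0.5 in size there.

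In the 2 small classes the ratios were wide. In proliferating cells SOX2 had a log2 ratio of -0.79 (-1.55 to -0.06) from 48 and 25 UMIs. In these cells 4.92% of genes with at least 5 CPM in either library passed 0.5 in size, and in duct-like cells 22.2%. In duct-like cells SOX2 was higher in the library labelled DOX by a log2 ratio of 1.20 (0.11 to 2.41), and in both classes it reached 5 CPM only in the library where it was higher. SOX6 at -0.76 (-1.17 to -0.37), SOX11 at -0.65 (-0.97 to -0.33) and SOX12 at -0.51 (-1.26 to 0.24) had ratios below 0 in duct-like cells. These ratios stand beside that of SOX10 and the sum of the Schwann or neural crest list, which were also lower, and the sum of the acinar list, which was higher, in the same cells. The cartilage list summed to 182 and 111 CPM there, the neural progenitor list to 181 and 139 CPM, the pluripotent list to 36.4 and 22.3 CPM and the progenitor list to 395 and 583 CPM. The part of these lists, and of the duct-like markers given above, in the SOX ratios was not tested.

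**Figure D5:**
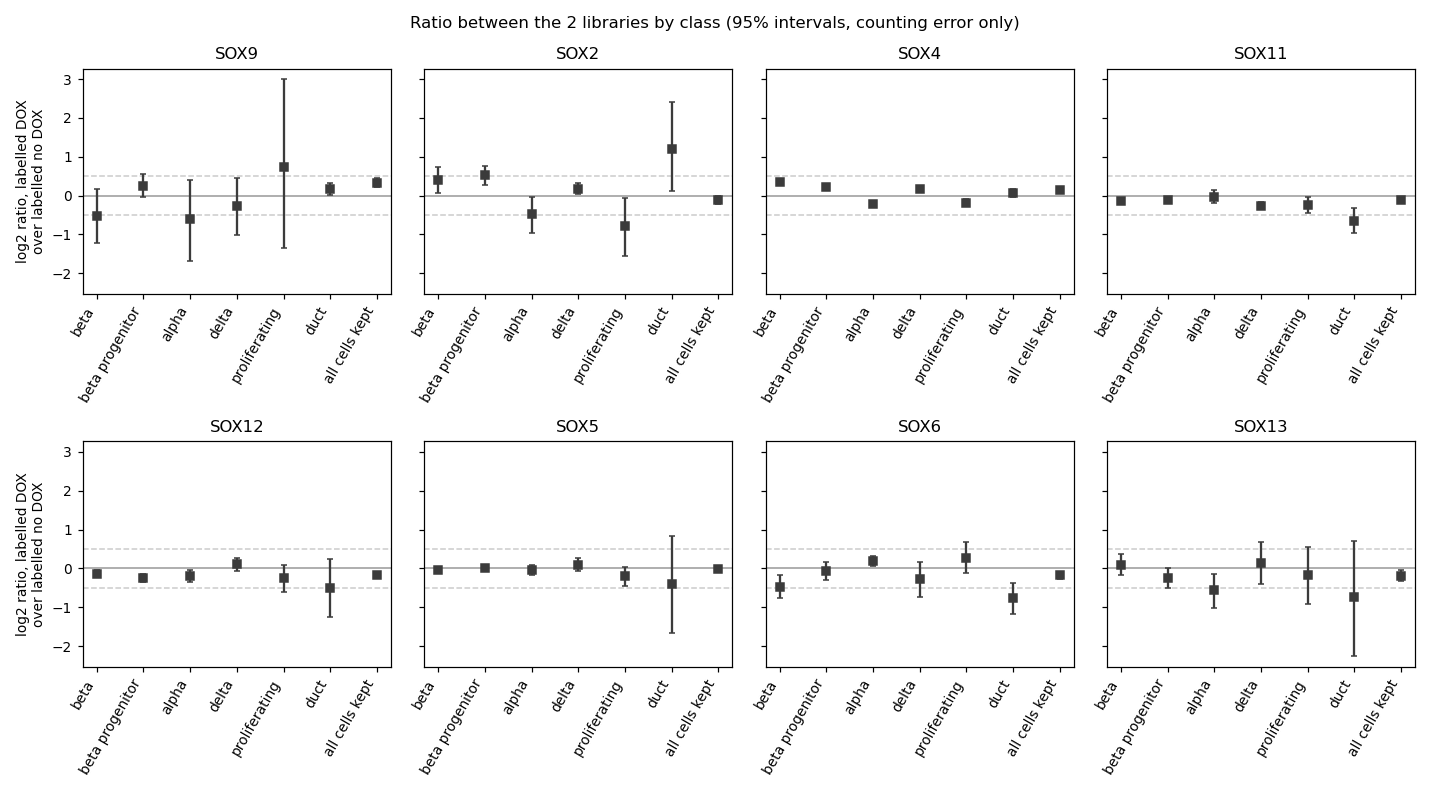
Log2 ratio of CPM, DOX-labelled to no DOX-labelled library (vertical axis), for each SOX gene by named class and over all cells kept, with 95% intervals for counting error; dashed lines mark 0.5 in either direction. SOX4 lies above 0 in beta-like (0.35) and below it in alpha-like cells (-0.22), and the intervals of SOX9 hold 0 in each class but duct-like.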

How the data were processed

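Single-cell RNA-seq was made of 1 10X Genomics library per group, so no comparison is replicated and no p-value was computed. The values are UMI counts per gene and cell as the authors deposited them, and no normalization had been applied. Per the file headers the matrices were written by software version 3.0.2, and the submitters' processing notes name Cell Ranger 3.0, kallisto, bustools 0.40.0, Scanpy and Seurat without their roles. These notes name the build GRCh38. The study's methods describe kallisto pseudoalignment to Ensembl GRCh38 transcripts with gene counts by bustools, whereas the header is of the other software, so which of them made the deposited counts is uncertain. The annotation release of the deposited matrices and the use of strand in counting are not given in the sources used here. Lists of genes by condition in the study's supplement were used only to check the labels.

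Barcodes with at least 1000 UMIs were kept, doublets called by Scrublet in each library (26.6% and 26.5% of barcodes) were removed, and counts were scaled to 10000 per cell. Cells were clustered with Scanpy 1.11.5 and leidenalg 0.10.2 (50 principal components of 2293 variable genes, 3 neighbours in each library, resolution 0.2), with 6 variable SOX genes left out. A class was named where the mean log2 ratio of its 12 markers over the other cells, and that of at least 3 of them, reached 1, and where no other class had more markers among the 10 leading genes. A cluster of low depth with no marker among its leading genes stayed unnamed. Counts were summed per class and library and given as CPM with exact Poisson intervals. Ratios have exact conditional binomial intervals and shares exact Clopper-Pearson intervals (scipy 1.17.1), all at 95% and for counting error only. Genes with at least 5 CPM were compared by size alone, a log2 ratio of 0.5 between libraries or 1 between classes. Every member was named, and for each the 3 genes with at least 10 CPM in a cluster whose log2(CPM + 1) had the highest Pearson's r with it. The intervals of the ratios were tested on simulated Poisson counts. These hold no variation between cells or libraries, so the test says nothing about such variation. The members and all lists were chosen with earlier results of these data known. The class markers came from the study's lists of cluster markers, which were made from these same libraries. The alternatives were other cell filters, clusterings, scalings, thinning and class weights. Values of some genes of these lists are not reported here.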

Additional observations from a re-analysis of the deposited data

Results flagged for a closer look

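For 3 members the log2 ratio of CPM, DOX-labelled to no DOX-labelled library, had opposite signs in a pair of classes, with counting intervals on either side of 0, and the difference itself was not tested because each condition is 1 library. SOX2 had a log2 ratio of 1.20 in duct-like and -0.79 in proliferating progenitor-like cells, a difference of 1.99, and 10 cells held 46.6% of the 73 SOX2 UMIs of the proliferating and 55.3% of the 38 of the duct-like class. Its ratio was above 0 also in beta cell progenitor-like (0.52), beta-like (0.40) and delta-like cells (0.17) and below 0 also in alpha-like cells (-0.49). SOX4 had 0.35 in beta-like and -0.22 in alpha-like cells, a difference of 0.57, and its ratio was above 0 also in beta cell progenitor-like and delta-like cells and below 0 also in proliferating cells. SOX6 had 0.20 in alpha-like and -0.76 in duct-like cells, a difference of 0.96, and its ratio was below 0 also in beta-like cells (-0.47). In the same duct-like cells the Schwann or neural crest list summed to 285 and 143 CPM and the acinar list to 145 and 498 CPM (no DOX-labelled library first), and their part in the SOX2 and SOX6 values was not tested.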

How the results depend on the processing

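The log2 ratio of SOX9 between the libraries over all cells kept, 0.33, was 0.10 by means of log-normalized values, 0.20 with cells thinned to 5000 UMIs and 0.16 with every named class weighted equally. It was -0.09 with the duct-like cells left out, an alternative chosen after seeing the data. The ratio of SOX2, -0.11, was 0.24 with every named class weighted equally, and the cause was not tested. The 8 ratios between classes, recomputed under each alternative that gave one, came within their interval 68 times and outside it 10 times. The 8 ratios between libraries and the 3 differences of such ratios between classes came within their interval, or for the differences kept opposite signs, 92 times, moved outside it 9 times (the 0.10, 0.20 and 0.16 of SOX9 among these) and turned direction in the 2 cases above. The 2 counts of members (8 with the same highest class in both libraries, 0 past a log2 ratio of 0.5 over all cells) stayed within 1.5 times in 22 of 22 recomputations. The first was 7 with at least 2000 UMIs and with no UMI minimum, where SOX13 had different highest classes in the libraries, and with log-normalized means, thinning and fine clusters, where SOX12 did. A limit of 1.5 times is wide for a count of at most 8 and has no meaning for a count of 0. Little is therefore read from the 22 of 22. The log2 ratio of SOX6 in duct-like over alpha-like cells, 1.31, was 0.87 with doublets kept, under the log2 ratio of 1. With doublets kept, 5 classes were named and the proliferating class had no value. No paired analysis was possible because each group is 1 library and no result comes from a test. Depth limits, among others, SOX9 in proliferating cells (4 and 6 UMIs), alpha-like cells (26 and 13), beta-like cells (40 and 33) and delta-like cells (46 and 26). It also limits SOX2, SOX5, SOX12 and SOX13 in duct-like cells (8 to 35 UMIs per library). In proliferating cells it limits SOX2 (48 and 25 UMIs) and SOX13 (39 and 31 UMIs).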
